A study of Mus musculus with 2 samples.

Results

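Genes of antigen presentation and of the immunoproteasome were examined in epididymal white adipose tissue of PPARβ/δ-deficient mice (the gene, Ppard, encodes a nuclear receptor). The 10 genes were chosen by name, as MHC class II genes, subunits of the immunoproteasome and genes of MHC class I peptide loading. They are represented by 18 of the 22690 probe sets of the array, and 10 of the 12394 genes that a probe set names alone. No probe set names one of them together with another gene.

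For each genotype, the RNA of 5 animals was combined into a pool and measured on 1 Affymetrix array. The knockout pool came from male PPARb/d knock-out mice aged 12 weeks on a mixed Sv129/C57BL/6 background. The wild-type pool came from males aged 12 to 16 weeks. For these, the sample label gives the strain 129S1/SvJae, whereas the design text describes littermates of the knockout animals. All animals were on standard chow, and the labels do not say how Ppard was disrupted. Strain and genotype cannot be told apart in this design, which matters for MHC genes because their sequences vary between strains. With 1 pooled array per genotype there is no spread between samples, so no test was made, and each difference describes these 2 arrays only. Ppard itself was at an intensity of 6.58 in wild-type and 6.27 in knockout fat, too low on both arrays to check the genotype.

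MHC molecules show peptides to T cells. Class I molecules carry peptides cut from cytosolic proteins by the proteasome and are found on nearly all nucleated cells, whereas class II molecules carry peptides from endocytosed proteins and are found mainly on macrophages, dendritic cells and B cells. Interferon-γ raises both pathways and replaces the 3 catalytic subunits of the proteasome by inducible counterparts, which gives the immunoproteasome. In fat, resident macrophages are a main class II-positive population, and adipocytes have also been described to carry class II.

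Of the 10 genes, 8 are on chromosome 17, where the H2 genes, Psmb8, Psmb9, Tap1 and Tapbp lie in 1 stretch; B2m and Cd74 are on other chromosomes. RefSeq's promoter table (build GRCm38.p6) held 8 of the 10, with H2-Ab1 and Cd74 missing. The stretches before the start sites of the genes with the largest differences are shown, with that of B2m for comparison, because its representing probe set differed least of the 8 genes above the floor. They are written 5′ to 3′ on the strand of the gene, and for Psmb9 and Tap1, which are read in opposite directions from the 225 bases between them, on the plus strand. The capitals mark matches to 4 motifs searched on both strands: the Y box CTGATTGG, the interferon-stimulated response element core GAAANNGAA, the γ-activated sequence core TTCNNNGAA and the NF-κB core GGACTTTCC.
Psmb8, chr17:34197945-34198194, plus strand: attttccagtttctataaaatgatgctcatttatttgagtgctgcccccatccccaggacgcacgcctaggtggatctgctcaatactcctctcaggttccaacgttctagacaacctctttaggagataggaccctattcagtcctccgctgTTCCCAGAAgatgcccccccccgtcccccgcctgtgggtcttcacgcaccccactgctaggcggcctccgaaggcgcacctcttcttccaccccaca
Psmb9 and Tap1, chr17:34187331-34187555, plus strand: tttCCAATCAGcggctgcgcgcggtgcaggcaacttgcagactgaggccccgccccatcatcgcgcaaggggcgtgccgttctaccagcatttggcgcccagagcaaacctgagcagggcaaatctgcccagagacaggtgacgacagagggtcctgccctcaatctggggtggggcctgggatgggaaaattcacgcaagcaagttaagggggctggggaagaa
H2-Eb1, chr17:34305617-34305866, plus strand: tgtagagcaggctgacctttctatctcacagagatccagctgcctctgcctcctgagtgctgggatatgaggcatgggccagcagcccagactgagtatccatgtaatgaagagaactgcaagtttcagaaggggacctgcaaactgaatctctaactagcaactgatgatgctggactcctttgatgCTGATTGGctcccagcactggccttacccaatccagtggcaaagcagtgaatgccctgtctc
H2-Aa, chr17:34287824-34288073, minus strand: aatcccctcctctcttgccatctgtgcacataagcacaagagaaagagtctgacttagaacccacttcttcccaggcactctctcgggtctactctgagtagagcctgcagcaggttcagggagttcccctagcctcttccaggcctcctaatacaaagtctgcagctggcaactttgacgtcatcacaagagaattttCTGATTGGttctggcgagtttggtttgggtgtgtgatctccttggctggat
B2m, chr2:122147437-122147686, plus strand: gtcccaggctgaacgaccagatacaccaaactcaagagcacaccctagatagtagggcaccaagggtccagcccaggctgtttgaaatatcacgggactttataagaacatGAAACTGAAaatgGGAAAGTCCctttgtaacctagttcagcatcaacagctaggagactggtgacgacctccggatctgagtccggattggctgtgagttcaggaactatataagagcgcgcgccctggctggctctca

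The Y box, one of the conserved elements of class II promoters, was in the stretches of H2-Eb1 and H2-Aa and in the one shared by Psmb9 and Tap1. Among other MHC genes searched, H2-D1 held it, H2-K1 and H2-DMb1 held none of the 4 motifs, and H2-DMb2 held the γ-activated sequence core. Of 32851 mouse promoters, 3.83% hold it in the 250 bases before the start. In H2-Eb1 it began 62 bases before the start site and in H2-Aa 51 bases. The γ-activated sequence core was in the stretch of Psmb8 (7.02% of promoters). The B2m stretch held the interferon-stimulated response element core (7.13% of promoters) and, next to it, the NF-κB core (0.283%). No match was in those of Tapbp or H2-DMa, nor in those of Psmb5, Psmb6 and Psmb10. The motifs did not overlap one another in any of these stretches.

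All 18 probe sets of the 10 genes were lower in the knockout pool, as were 59.6% of the 20393 probe sets that name 1 gene. Very dim probe sets give little information, so an intensity floor of 32 (5 on the log2 scale) on at least 1 array was set, which 13 of the 18 probe sets and 8 of the 10 genes reached. All 13 were lower, against 56.8% of the 9637 probe sets above the floor in the series. The Psmb9 probe set reached the floor only in the wild-type pool, so it could only come out lower. Of the 13, 4 were at least 2-fold lower, against 8.99% of those 9637. When each gene was represented by its brightest probe set above the floor, Psmb8, Psmb9 and H2-Eb1, 3 of the 8, reached a 2-fold lower value, and none of the 8 was higher. Among all 6533 genes above the floor, 597 were at least 2-fold lower (9.14%) and 55.5% were lower by any amount. The median log2 difference, knockout minus wild type, was -0.61 over the 8 genes and -0.08 over all 6533.

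**Figure D1:**
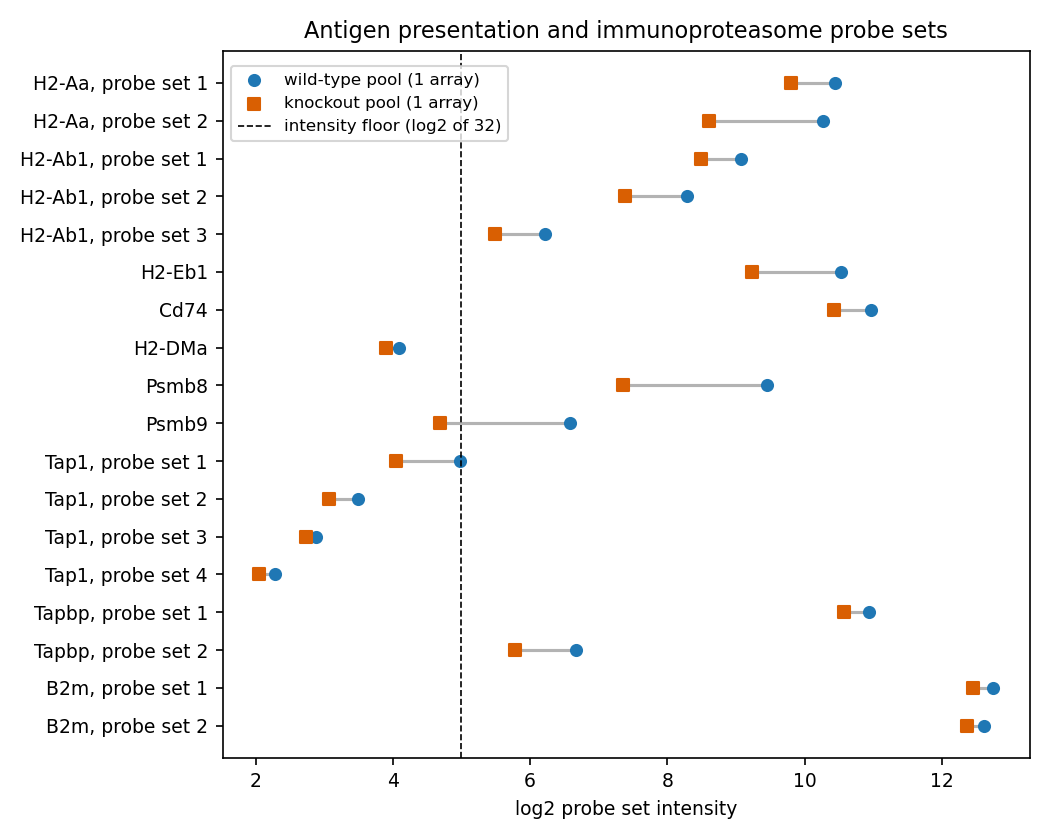
Intensity of every probe set of the 10 genes (log2 scale, horizontal axis) in the wild-type pool (circles) and the knockout pool (squares), with 1 array each. The dashed line is the floor of 32; the square lies left of the circle in all 18 rows, and the widest gaps are those of Psmb8 and Psmb9.

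The immunoproteasome subunits had the largest differences of the 8 genes as measured, although with 32 added to each intensity Psmb9 (-1.15) came after H2-Eb1 (-1.25). Psmb8 encodes LMP7, the inducible β5 subunit with chymotrypsin-like activity. Its single probe set was at 702 in wild-type and 164 in knockout fat, 4.29-fold lower, a log2 difference of -2.10. This placed it 47th from the lowest of the 6533 genes. Psmb9, the inducible β1 subunit LMP2, was at 95.8 in wild-type fat and at 25.7, under the floor, in knockout fat. It was at least 2.99-fold lower with the dim value set to the floor, and its log2 difference as measured was -1.90. Both probe sets were thus brighter in the wild-type than in the knockout pool.

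The subunits that these proteins replace did not follow them. Psmb5, the constitutive β5 subunit, was at 1059 in wild-type and 1093 in knockout fat, a log2 difference of 0.05. Psmb6, the constitutive β1 subunit, was at 1302 and 1685, a difference of 0.37. Psmb8 was therefore 4.43-fold lower relative to Psmb5, and Psmb9 at least 3.88-fold lower relative to Psmb6 with its knockout value at the floor. The remaining pair showed the same order. Psmb10, the inducible β2 subunit, was at 86.9 and 39.7, 2.19-fold lower, and its constitutive counterpart Psmb7 was at 2768 and 3191, so that Psmb10 was 2.52-fold lower relative to Psmb7. These ratios show unequal differences within the same 2 arrays. They give no proportion of the 2 kinds of proteasome, since probe sets of different genes differ in brightness.

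The interferon-inducible activator PA28, a ring that opens the proteasome, was lower by a smaller amount. Its α subunit Psme1 was at 1050 in wild-type and 654 in knockout fat (log2 difference -0.68). The probe set for its β subunit Psme2 also names the copy Psme2b, and was at 316 and 170 (-0.89). Of the 11 other genes of the 20S core, 8 were lower and 3 higher, none by 2-fold, the median log2 difference being -0.09 that turned positive when the trend with intensity was removed. Among them, Psmb2 was at 167 and 97.1 (-0.79), Psma1 at -0.57 and Psma4 at -0.17 on the log2 difference scale, while Psma5 was at 0.22 and Psma6, at 2432 and 3968, at 0.71. Probe sets ranged from -0.32 to 0.22 for Psma5 and from -0.05 to 0.11 for Psmb4, both counted as higher, so their direction is uncertain.

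Genes of the 19S regulator, of other activators and of proteasome assembly differed little on balance. Of 25 above the floor, 10 were lower and 15 higher, the median log2 difference being 0.07. Psmc3, an ATPase of the 19S base, was at 804 in wild-type and 1936 in knockout fat, 2.41-fold higher. Psme4, the activator PA200, known for its part in sperm development, was at 829 and 1720, 2.07-fold higher. Those at the low end were Psmd5 (-0.68), Psmd14 (-0.33) and Psmd11 (-0.27). Germ cell markers were higher in the same pool, by a median log2 difference of 5.19 (4.76 with dim values set to the floor), and their part in the higher values of this list was not tested.

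**Figure D2:**
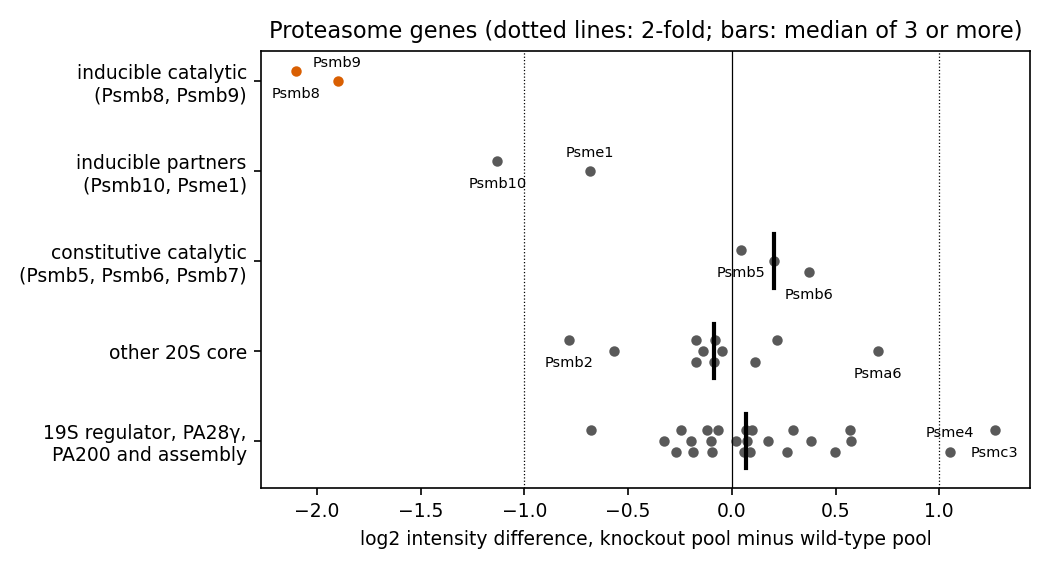
Log2 intensity difference, knockout minus wild-type pool (horizontal axis), for each proteasome gene above the floor, 1 dot per gene, by class of subunit. Psmb8 and Psmb9 (-2.10 and -1.90) lie left of all others, Psmb10 follows at -1.13, and the constitutive catalytic subunits lie between 0.05 and 0.37.

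Of the 5 MHC class II genes, 4 were above the floor, and all 4 were lower in the knockout pool, 1 by 2-fold. Of all genes above the floor, 55.5% were lower and 9.14% at least 2-fold lower. H2-Eb1, the β chain of the I-E molecule, was at 1482 in wild-type and 603 in knockout fat, 2.46-fold lower (log2 difference -1.30). H2-Aa, the α chain of I-A, has a pair of probe sets that differed in size. The brighter one was at 1395 and 894 (-0.64), and the other at 1229 and 389 (-1.66). Both were lower in the knockout pool, but only the second by 2-fold, and the mean of both was -1.15. H2-Ab1, the β chain of I-A, has 3 probe sets. The brightest was at 537 and 360 (-0.58), the next at 313 and 166 (-0.91) and the dimmest at 74.2 and 45.1 (-0.72). All 3 were lower, none by 2-fold.

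Cd74 encodes the invariant chain, which fills the peptide groove of new class II molecules and escorts them to the endosome. It was at 2009 in wild-type and 1371 in knockout fat, 1.47-fold lower (-0.55). H2-DMa, a chain of the molecule that exchanges the invariant chain fragment for peptide, was below the floor on both arrays, at 17.1 and 14.97. H2-DMb2, a β chain of the same molecule, was at 37.2 in wild-type fat and at 24.8, under the floor, in knockout fat. The probe set naming both H2-DMb2 and H2-DMb1 was at 53.4 and 45.3.

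H2-Ea, the α chain that pairs with H2-Eb1, is not expressed in mice of the H2b haplotype such as C57BL/6. Its 3 probe sets were below the floor on both arrays, the brightest at 31.6 in wild-type and 29.1 in knockout fat. The transcriptional master regulator of class II genes, Ciita, was also below the floor, at 11.4 and 11.7. The same held for Rfx5, Rfxank and Rfxap, subunits of the factor that binds the X box of class II promoters, and for the costimulatory genes Cd80, Cd86 and Cd40.

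Of the 18 other genes listed for the class II pathway, 5 were above the floor, 4 lower and 1 higher, none by 2-fold, the median log2 difference being -0.27. Besides H2-DMb2 these were the endosomal enzymes that prepare antigen and cleave the invariant chain. H2-DMb2 reached the floor only in the wild-type pool, so it could only come out lower. The thiol reductase Ifi30 was at 212 and 162 (-0.39), and legumain, Lgmn, at 622 and 517 (-0.27). Cathepsin S, Ctss, which removes the invariant chain in macrophages and dendritic cells, was at 421 and 374 (-0.17). Cathepsin L, Ctsl, was at 4152 and 4662 (0.17).

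Of the class I loading genes, B2m and Tapbp were above the floor and lower by less than 2-fold on every probe set. B2m, β2-microglobulin, the light chain of every class I molecule, was at 6863 in wild-type and 5588 in knockout fat, 1.23-fold lower (log2 difference -0.30), and its second probe set at 6267 and 5299 (-0.24). Tapbp, tapasin, which bridges class I molecules to the peptide transporter, was at 1958 and 1524 (-0.36) with the brighter and at 102 and 55.2 (-0.88) with the dimmer probe set. Tap1, a subunit of that transporter, stayed below the floor on all 4 of its probe sets. The brightest was just under it in the wild-type pool, at 31.7 against 16.6 in the knockout pool, and the other 3 ranged from 4.87 to 11.2 in the wild-type and from 4.15 to 8.38 in the knockout pool. Its partner Tap2 was below the floor as well, at 23.7 and 10.7.

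The class I heavy chain genes above the floor were lower as well. H2-K1 was at 5201 in wild-type and 2971 in knockout fat (log2 difference -0.81), and its 4 probe sets ranged from -1.09 to -0.29. H2-D1 was at 11332 and 6877 (-0.72), and its 4 probe sets above the floor ranged from -2.01 to -0.72. Heavy chain genes are near-identical copies of each other and differ between strains, so these values are uncertain as to the gene. Of 7 class I probe sets above the floor that name several genes, 6 were lower, and 2 of these reached 2-fold. Of the 9637 probe sets above the floor that name 1 gene, 56.8% were lower and 8.99% at least 2-fold lower. The 1 higher probe set, which names H2-D1, H2-Q2 and Gm38417, was at 28.1 in wild-type and 34.7 in knockout fat. It reached the floor only in the knockout pool, so it could only come out higher. The probe set for H2-T23, which also names a pseudogene, was at 852 and 169, and the one shared by H2-T9, H2-T22 and H2-T10 at 736 and 229. Cd1d1, a class I-like molecule that presents lipids to natural killer T cells, was at 1742 and 708, 2.46-fold lower, and its second probe set differed by -1.52. Mr1, which presents vitamin metabolites, was at 40.5 and 24.3. Mr1 reached the floor only in the wild-type pool, so it could only come out lower. H2-Ke6, listed with them for its name, encodes a hydroxysteroid dehydrogenase and was at 119 and 88.0.

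Of 6 other genes listed beside Tap1 and Tapbp and above the floor, 5 were higher and 1 lower, none by 2-fold. The median log2 difference was 0.23. The higher ones were Calr, Canx, Pdia3, Hspa5 and Sec61a1, general chaperone, isomerase and translocon genes that are not particular to class I. Calnexin, Canx, was at 3484 in wild-type and 3815 in knockout fat and the disulphide isomerase Pdia3 at 3584 and 4148. Hspa5, the chaperone BiP, was at 6631 and 8051. Sec61a1, the translocon channel, was at 1906 and 2543, and its probe sets ranged from -0.15 to 0.77 on the log2 difference scale. The 1 lower gene was Tapbpl, a tapasin-related peptide editor, at 71.0 and 41.8 (-0.77). Of the same list, Tap2 and Erap1, at 21.0 and 16.3, were below the floor on both arrays.

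**Figure D3:**
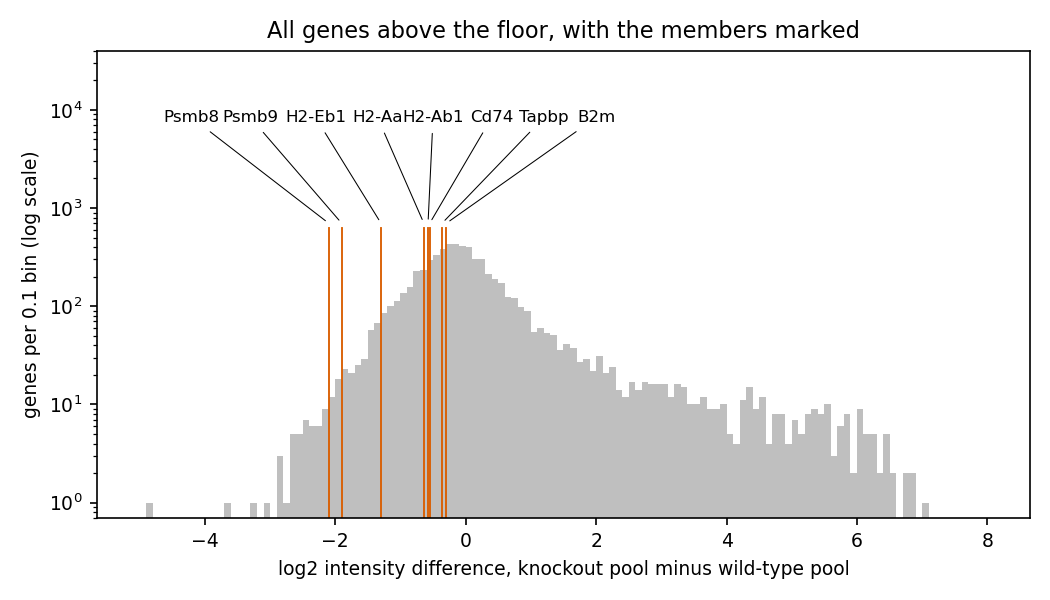
Number of genes (log scale, vertical axis) by log2 intensity difference, knockout minus wild-type pool, for the 6533 genes above the floor, with the 8 genes of the set marked by vertical lines. Psmb8, Psmb9 and H2-Eb1 lie in the lower tail, and the other 5 lie between -0.64 and -0.30.

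The genes of interferon signalling and its targets were lower together with the immunoproteasome. Of 45 listed, 23 were above the floor, 21 of them lower and 7 at least 2-fold, against 55.5% and 9.14% of all genes. Irf2, Cxcl9 and Ifi47 reached the floor only in the wild-type pool, so they could only come out lower. The median log2 difference was -0.71. It was -0.49 over the genes kept with a floor of log2 4 and -0.37 with no floor. The largest differences were those of interferon-γ-inducible GTPases. Irgm2 was at 232 in wild-type and 61.2 in knockout fat (-1.92), Gbp6 at 192 and 51.3 (-1.91) and Iigp1 at 628 and 198 (-1.66). The transcription factor Irf1, which drives Psmb9 and Tap1, was at 73.7 and 45.1 (-0.71). The interferon-γ receptor chain Ifngr2 was higher, at 41.8 and 57.7, as was Irf9, at 76.6 and 88.1. The other chain of that receptor, Ifngr1, was brighter and lower, at 371 and 206 (-0.85). Interferon-γ itself (Ifng) and the antiviral targets Mx1, Ifit1 and Oas2 were below the floor on both arrays.

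Markers of the cells that carry class II were lower in the same pool. Of 20 macrophage markers above the floor, 18 were lower and 7 at least 2-fold, against 55.5% and 9.14% of all genes above the floor. Cd14, Cd163, Cd53, Fcer1g, Mpeg1 and Msr1 reached the floor only in the wild-type pool, so they could only come out lower. With the knockout value at the floor, Fcer1g (1.24-fold) and Mpeg1 (1.99-fold) fell short of 2-fold. The median log2 difference was -0.83 (-0.77 with dim values set to the floor). The summed intensity of the markers was 12296 in wild-type and 8843 in knockout fat, the latter including Aif1 at 1658. At the low end, the scavenger receptor Cd163 was at least 2.68-fold, Cd53 at least 2.85-fold and Laptm5 2.65-fold lower; the bounds of Cd163 and Cd53 set their knockout values, under the floor, to it. At the high end were Fcgr3 (0.44) and Aif1, at 104 and 1658. Beside it, the median of the 4 class II genes above the floor was -0.61, or -0.94 with the mean of their probe sets, where that of the macrophage markers was -0.83. The median of Tapbp and B2m was -0.33, and Psmb8 and Psmb9 were at -2.10 and -1.90. No test set these against each other. Of the dendritic cell markers only Clec10a was above the floor, at 86.4 and 33.8; Itgax, Flt3, Zbtb46 and Xcr1 were below it on both arrays. Of B cell and plasma cell markers, Ighm was at 321 and 76.7 and Jchain at 69.3 and 53.1, while Cd79a, Cd79b, Ms4a1 and Pax5 were below the floor. All 13 T and NK cell markers with a probe set were below it. In pooled tissue, fewer cells of a type and less RNA per cell cannot be told apart.

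Markers of adipocytes and endothelial cells were lower, and markers of testis germ cells and epididymis epithelium, tissues next to the fat pad, were higher. Of all genes above the floor, 55.5% were lower, 9.14% at least 2-fold lower and 13.7% at least 2-fold higher. Of 12 adipocyte markers 11 were lower, the median log2 difference being -1.15 and a summed intensity of 60461 in wild-type and 40157 in knockout fat. The satiety hormone gene Lep (-2.87), the receptor Pparg (-2.35) and the glucose transporter Slc2a4 (-1.53) were at its low end, and Fabp4 (-0.20) and Aqp7 (0.96) at its high end. The probe sets of these last genes disagreed, ranging from -1.88 to -0.10 for Fabp4 and from -2.01 to 0.96 for Aqp7, so the direction of Aqp7 is uncertain. Of 11 endothelial markers 10 were lower (median -0.88, sums 1542 and 808), led by Sox18 (-1.59), Vwf (-1.52) and Tek (-1.16), with Cdh5 at -0.53 and Cldn5 at 0.01. Flt1 reached the floor only in the wild-type pool, so it could only come out lower. All 20 germ cell markers were higher, from Sycp3 (2.25), Prm1 (3.18) and Ldhc (3.67) to Gk2 (6.74) and Spz1 (7.06), and their summed intensity was 3937 and 76916. Some, Gk2 and Spz1 among them, reached the floor only in the knockout pool, so they could only come out higher. Of 9 epididymis markers 8 were higher (median 0.33, sums 50912 and 60370), from Cuzd1 (-0.03), Gpx5 and Lcn5 (both 0.09) to Defb2 (0.98) and Defb1 (1.57). The part of these cell types in the values of the antigen presentation genes was not tested.

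**Figure D4:**
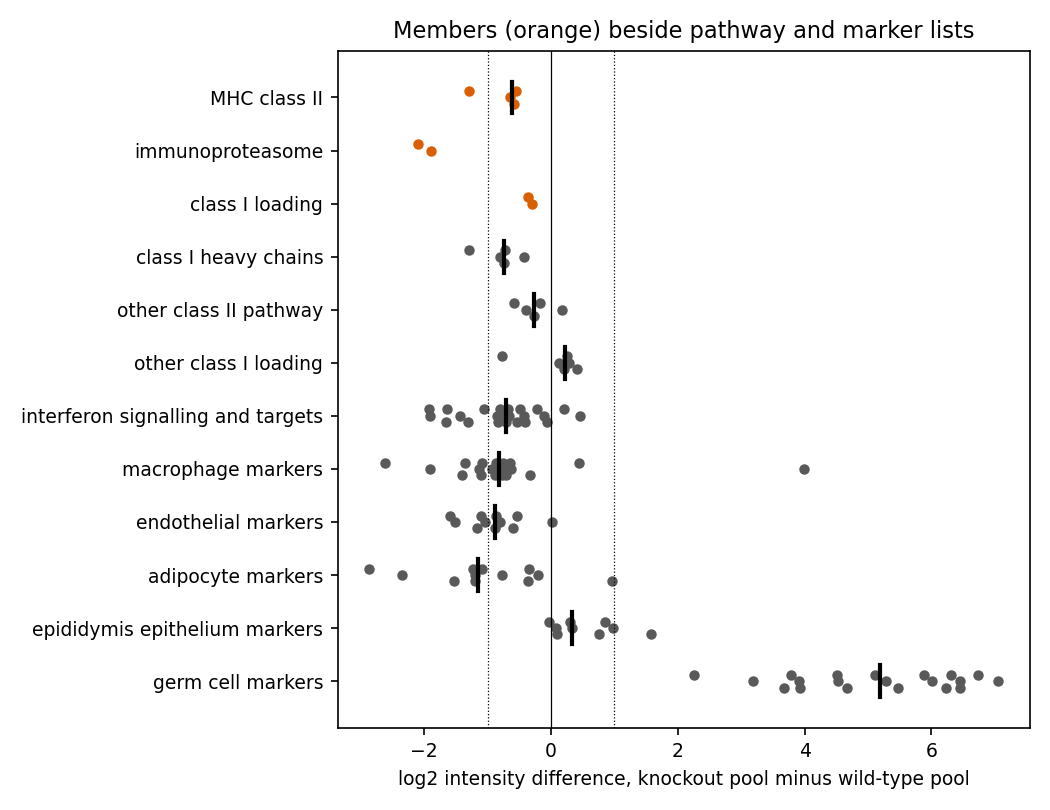
Log2 intensity difference, knockout minus wild-type pool (horizontal axis), for each gene above the floor in the 3 groups of antigen presentation genes (orange) and in the pathway and cell marker lists (grey), with bars at medians of 3 or more genes and dotted lines at 2-fold. The immunoproteasome subunits lie below the medians of the macrophage (-0.83), endothelial (-0.88) and adipocyte markers (-1.15), and the class I loading genes lie above them.

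Ppard and the MHC lie on the same chromosome, so genes of the MHC stretch were also listed by position. The part of position in their values was not tested. The protein-coding genes from Tapbp to H2-Eb1 in RefSeq order number 26, of which 14 serve antigen presentation and 12 do not. Of the 14, 8 were above the floor, all lower, 3 at least 2-fold, the median log2 difference being -0.72. Psmb9 and H2-DMb2 reached the floor only in the wild-type pool, so they could only come out lower. Tapbp, Psmb9, Psmb8, H2-Ab1, H2-Aa and H2-Eb1 among these 8 belong to the genes examined here, so they repeat values given above. Among all genes above the floor, 55.5% were lower and 9.14% at least 2-fold lower. Of the 12 others, 7 were above the floor, 5 lower and 2 higher, none by 2-fold, with a median of -0.14. Brd2, a bromodomain protein that lies near the H2-DM genes, was at 170 in wild-type and 278 in knockout fat (0.71). Rps18, a ribosomal protein gene, was at 10688 and 9818 (-0.12), and the zinc transporter Slc39a7 at 880 and 800 (-0.14). Rgl2 had the lowest difference of these, -0.72, close to the median of the antigen presentation genes. Rxrb, a retinoid X receptor, was at -0.55 and H2-Ke6 at -0.43. These other genes were picked by position with their values known, and no test set them against the antigen presentation genes.

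**Figure D5:**
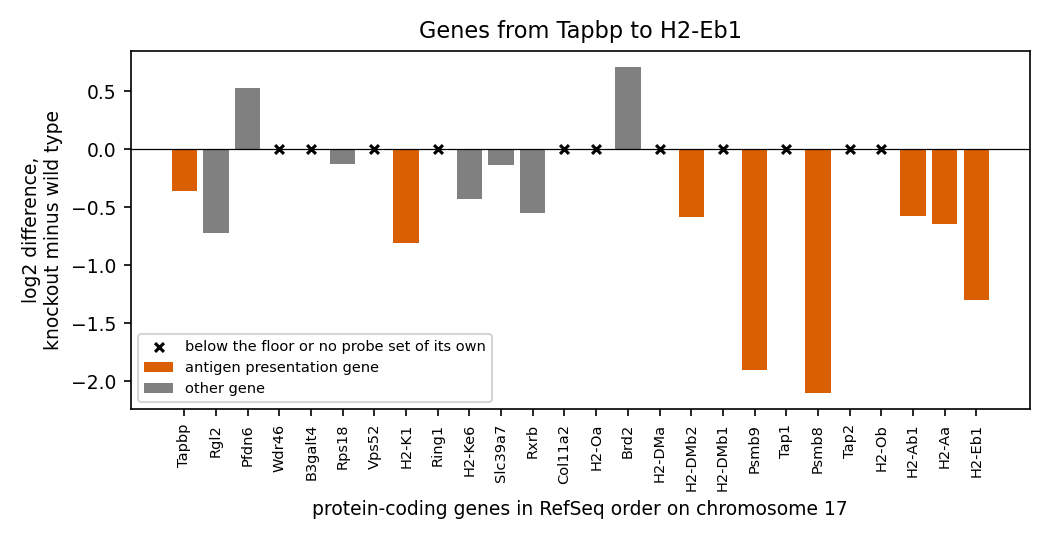
Log2 intensity difference, knockout minus wild-type pool (vertical axis), of the 26 protein-coding genes from Tapbp to H2-Eb1 in their order on chromosome 17. Bars are antigen presentation genes (orange) or other genes (grey) and crosses are genes below the floor or without a probe set of their own; the orange bars all point down, and 2 grey bars point up.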

How the data were processed

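Total RNA was labelled with biotin and hybridised, per the labels' protocols. The deposited values are probe set intensities that the authors made with GCRMA 2.20, per the submitters' processing notes. They run from 1.91 to 36322, a linear scale, so log2 was taken here and nothing else changed. GCRMA estimates background from probe sequence and compresses dim signals towards a low level; the set of arrays it was run on is not stated. The probe annotation is that of a smaller array than the design text names. Of 22690 probe sets, 20393 name 1 gene (20364 matched by identifier to GRCm38.p6 records), 691 several and 1606 none; only the first kind represents genes.

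Genes were kept when a probe set reached 32 on 1 array, and represented by the brightest one. A 2-fold difference was counted. Between kept probe sets of 1 gene (2137 genes) the SD of the log2 difference had a median of 0.25. This SD reflects differences between probe sets, and does not measure error between arrays, pools or animals. No value has replicates, and the number of arrays limits the precision. Calculations used Python 3.11.15, pandas 2.3.3 and statsmodels 0.14.6, and were tested on simulated data. Named genes are the 10 genes, whole short lists, the 3 lowest and 2 highest of longer lists, and genes of defined role. Outside this rule, Brd2, Rps18, Slc39a7, Rgl2 and Ifngr1 were chosen with their values known. So were the genes of shared class I probe sets and most genes named as below the floor. The genes, lists and motifs were chosen with earlier results of these data, or the promoter sequences, known.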

Additional observations from a re-analysis of the deposited data

How the results depend on the processing

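The 10 alternatives changed the floor, the probe set that represents a gene, the treatment of dim values, the scaling or the probe sets used. The differences of the 8 genes above the floor stayed negative in all 75 values computed and moved by less than the typical SD between probe sets of a gene in 69. By construction many of these values could not move, so the count is not a measure of robustness. The other floors left all 8 genes at their main values. Averaging probe sets cannot move a gene with 1 probe set, and centring shifts every gene by the same small amount. Psmb8 ranged from -2.10 to -1.91 and H2-Eb1 from -1.30 to -1.14. Psmb9 ranged from -1.90 to -1.15 (log2 of intensity plus 32), and H2-Aa from -1.15 (mean of its probe sets, past 2-fold) to -0.49. The median of the genes, -0.61, was -0.94 with the mean and -0.93 with the median of kept probe sets. It was -1.30 without probe sets whose name suffix (_a, _s or _x) marks probes that may match several transcripts or genes. This leaves 3 of the genes, H2-Eb1, Psmb9 and Tapbp. Psmb8, Cd74 and B2m have only _a probe sets, and H2-Aa has only _s and _x ones. Of all genes, 597 were at least 2-fold lower, and 343 with 32 added to each intensity. The median of the 20S core genes, -0.09, was 0.069 with the intensity trend removed. The interferon list's median, -0.71, was -0.37 with no floor. With a floor of log2 4, all 10 genes were kept. No paired analysis was possible because each group has 1 array; for the same reason no replicate could be left out. Signals below the floor leave Tap1 and H2-DMa without a measured fold.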
